A study of Gallus gallus with 12 samples.

Results

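The small heat shock protein genes CRYAB, HSPB1, HSPB2, HSPB7 and HSPB8 were followed across white and yellow feather follicles of chickens at 2 ages. These 5 genes were all the rows carrying one of these symbols among the 24353 genes of the table. The group was picked because CRYAB was lower in yellow than in white follicles at both ages, so that difference is described here and not tested. Small heat shock proteins are chaperones that bind unfolding proteins without using ATP and hold them until the ATP-driven chaperones of the HSP70 system refold them or send them for degradation. CRYAB, also called alpha-B crystallin, is abundant in the lens and in striated muscle of vertebrates, where it binds desmin, the intermediate filament protein encoded by DES. HSPB2 and HSPB7 are known mainly from mammalian heart and skeletal muscle, whereas HSPB1 is widely expressed, the epidermis included, and HSPB8 works with the cochaperone BAG3 in the removal of misfolded proteins.

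The birds were F3 chickens of a cross of Huiyang Bearded and White Leghorn, and newly emerged feathers were plucked from the nape. RNA of the follicle base, epithelium and pulp together, was sequenced as 3 libraries each for white follicles at 7 weeks (7W1, 7W2, 7W3), yellow follicles at 7 weeks (7Y1, 7Y3, 7Y4), white follicles at 11 weeks (1W1, 1W3, 1W4) and yellow follicles at 11 weeks (1Y1, 1Y3, 1Y4). All birds carried at least 1 Dominant white allele, which suppresses black pigment, and all were CC at the recessive white locus and s/W at the sex-linked Silver locus. The white birds were II at Dominant white apart from 7W2, which was Ii, and in each yellow group the libraries numbered 1 and 3 were Ii and that numbered 4 was II. The sources give 12 individuals in one place and birds plucked at several ages in another, so whether libraries of the 2 ages share a bird is not known.

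Expression was given as FPKM, fragment counts scaled by gene length and by library size, which carry no read counts, so reads per gene were not recovered and precision is given by the spread of 3 libraries. The FPKM of a library summed to 640571 to 830214, and 15518 to 16665 genes lay above 0. Keratinocyte markers summed to 1566 to 2156 FPKM over the 12 libraries, and all 10 of those listed passed the filter on low values. Differences are given on the scale log2(FPKM + 0.1), which understates the change of low genes, from limma after Benjamini-Hochberg correction over all genes tested, and genes were called that changed by at least 2-fold with an adjusted p no higher than 0.05. In bulk follicles, fewer cells of a type and less RNA per cell cannot be told apart.

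The 5 genes covered a wide range of levels in the follicles. Averaged over the 12 libraries, HSPB8 had an FPKM of 154.0, higher than 97.1% of the genes tested, and HSPB1 had an FPKM of 29.2, higher than 85.0%. HSPB2 had a mean FPKM of 6.08, CRYAB of 1.35 and HSPB7 of 1.10. The order HSPB8, HSPB1, HSPB2 held in 12 of 12 libraries, and HSPB2 lay above both CRYAB and HSPB7 in all 12. The locus of HSPB2 as listed holds that of CRYAB, and the part of shared reads in their levels was not tested. In the lowest pair, CRYAB lay above HSPB7 in 5 of 6 white libraries and in 1 of 6 yellow libraries. CRYAB was picked for its lower values in yellow follicles, so nothing is read from that change of order. Of the 11 family members on the list used here, 7 were in the table under their symbols, and CRYAA and HSPB3 had a mean FPKM of 0.0249 and 0.0209, below the minimum of 0.1. CRYAA is the partner of CRYAB in the lens, and HSPB3 is a muscle member of the family.

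**Figure D1:**
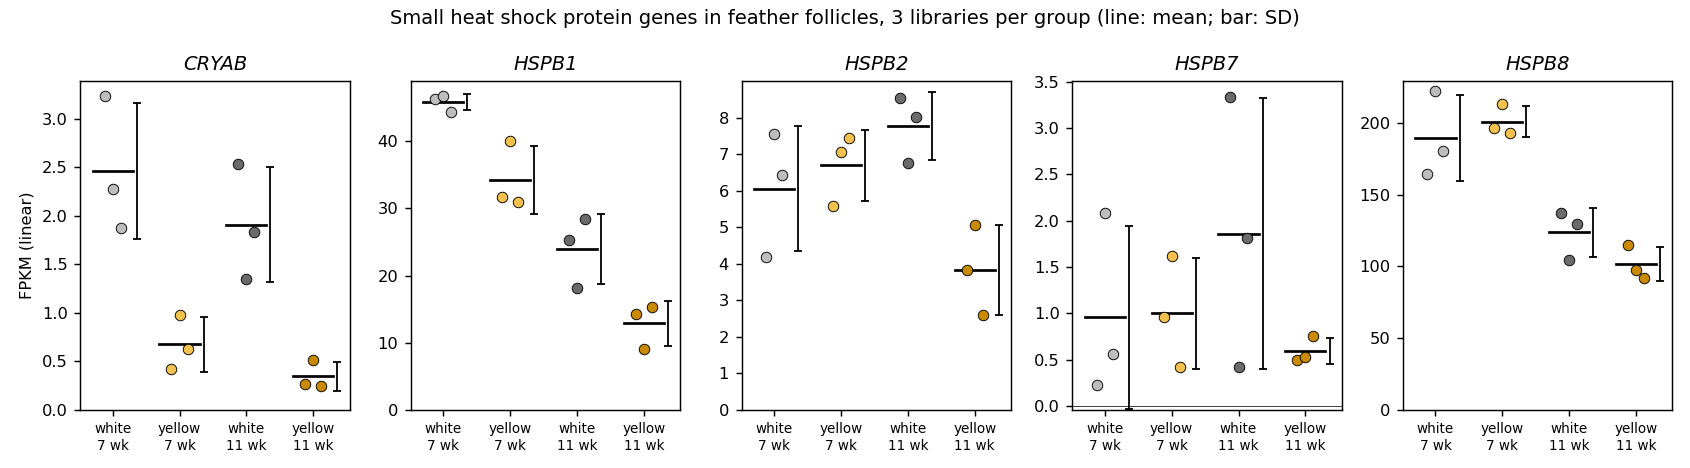
FPKM (linear axes, a separate scale for each gene) of CRYAB, HSPB1, HSPB2, HSPB7 and HSPB8 in the 4 groups; points are libraries, lines are means and bars are SD of 3 libraries. The 6 white libraries lie above the 6 yellow ones for CRYAB, HSPB1 and HSPB8 are lower at 11 than at 7 weeks in both colours, and HSPB7 spreads widely within groups.

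CRYAB (ENSGALG00000007945, chromosome 24 of GRCg6a from 6239994 to 6246232) was measured at 3.24, 2.28 and 1.88 FPKM in white follicles at 7 weeks. Yellow follicles of that age had 0.420, 0.979 and 0.622 FPKM. At 11 weeks the white libraries had 2.54, 1.35 and 1.84, and the yellow libraries 0.268, 0.516 and 0.245. No yellow library reached a white one at either age, and across both ages the lowest white value was 1.35 and the highest yellow value 0.979. At 7 weeks the means were 2.47 ± 0.699 (SD, n = 3) for white against 0.674 ± 0.283 for yellow, a ratio of 3.66. At 11 weeks they were 1.91 ± 0.596 for white against 0.343 ± 0.150 for yellow, a ratio of 5.56. The log2 difference, yellow minus white, was -1.76 (standard error 0.33) at 7 weeks, -2.19 (0.36) at 11 weeks and -1.97 (0.25) averaged over both ages. These values are those on which the gene was picked and carry no test here. Each yellow group held 1 II library at Dominant white, so nothing was read about that genotype.

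Part of the melanocyte markers differed between the colours in the direction of CRYAB. Of 13 melanocyte markers tested, 10 were lower in yellow follicles in the average of both ages (median log2 difference -0.61, against 0.07 over all genes tested), and 3 were called, namely PMEL, TYRP1 and MLANA. PMEL encodes the fibril protein of the melanosome, TYRP1 a melanosomal enzyme of pigment synthesis, and MLANA a melanosome protein. MLPH, which links melanosomes to their motor, was higher in yellow follicles without overlap at both ages, by 0.68 on average (adjusted p = 0.039 in limma, below 2-fold). With age, PMEL (-1.20) and MLANA (-1.06) were called lower at 11 weeks, in the direction of CRYAB, which was not called. The other way, 5 of the 13 markers were called higher at 11 weeks. Over all genes tested, limma called 2.96% lower and 25.0% higher with age. The median age difference of the 13 markers was 0.36, against 0.44 over all genes tested. The summed FPKM of the 13 markers at 7 weeks was 724 to 1730 for white against 224 to 400.5 for yellow, and at 11 weeks 360 to 682 against 172 to 247, so the colours did not overlap at either age. The 3 called genes made up most of that sum. Without them the other 10 markers summed at 7 weeks to 60.5 to 130.1 for white against 54.7 to 71.4 for yellow. At 11 weeks they summed to 68.9 to 111.6 against 74.0 to 98.6, with overlap at both ages. These 10 were left after dropping markers called for colour on the same libraries. Their overlap is therefore partly built in, and nothing is read from it. Endothelial markers lay the other way, with 7 of 7 tested higher in yellow follicles in the average and none called by limma. Their median was 0.36, against 0.07 over all genes tested. Of all genes tested 9034 of 14553 lay higher in yellow follicles, and nothing is read from the count of 7. The endothelial sums at 11 weeks were 34.6 to 37.9 for white against 38.3 to 61.7 for yellow, without overlap. At 7 weeks they were 24.3 to 25.9 against 25.1 to 37.5, with overlap. Schwann cell and myelin markers, listed because CRYAB is also known from glia, overlapped in their sums at both ages, at 7 weeks with 54.5 to 66.6 for white against 52.9 to 63.9 for yellow. None of the 10 was called for colour in limma, with 4 lower and 6 higher in yellow follicles. Lens genes were nearly silent or did not follow colour, with 7 of 14 listed below the minimum, CRYBA2 at 0 in all libraries, and 0 of 7 tested called for colour by limma. CRYBB1, a lens beta crystallin, was called lower at 11 weeks (-1.48). The part of melanocytes or endothelial cells in the CRYAB difference was not tested.

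HSPB1 (ENSGALG00000001926, chromosome 19 from 4403290 to 4405344), a chaperone that also binds actin filaments, was lower in yellow follicles too, by less. At 7 weeks its FPKM was 46.4, 46.7 and 44.4 in the white libraries against 31.7, 40.0 and 31.0 in the yellow ones. At 11 weeks it was 25.3, 18.2 and 28.4 against 14.2, 9.11 and 15.4. At each age all yellow libraries lay below all white ones. The difference was -0.43 at 7 weeks (adjusted p = 0.281 in limma, Benjamini-Hochberg) and -0.90 at 11 weeks (adjusted p = 0.59). Averaged over both ages it was -0.66 (standard error 0.14, 95% interval -0.98 to -0.35), and it was not called (adjusted p = 0.0811 in limma). A two-sided exact permutation test of colour within each age, for this gene alone, gave p = 0.005, the smallest its 400 arrangements allow. The same exact permutation test gave p = 0.15 for HSPB2, 0.52 for HSPB7 and 0.425 for HSPB8. These p-values are not corrected for the number of members. Within 1 age, 3 libraries against 3 cannot give a p below 0.10.

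None of the other 3 members was called for colour by limma. All 5 members had values below 0 at 11 weeks (median -1.05, against 0.03 over all genes tested). The same held in the average (median -0.44, against 0.07), and for 2 of 5 at 7 weeks. Over all genes, 6457 of 14806 lay below 0 at 11 weeks, 5519 of 14553 in the average and 5143 of 13895 at 7 weeks. CRYAB, picked for its lower values in yellow follicles, is among the 5, and both medians are values of HSPB2. Nothing is read from these counts. HSPB8 (ENSGALG00000007383, chromosome 15 from 10006077 to 10008129) stood at 164.8, 222.8 and 180.7 FPKM in white libraries of 7 weeks against 197.0, 213.4 and 193.1 in yellow ones. At 11 weeks the values were 137.5, 104.8 and 129.4 for white against 114.8, 97.6 and 92.1 for yellow. The colours overlapped at both ages, and the average difference was -0.09 with a 95% interval of -0.30 to 0.11 (adjusted p = 0.598 in limma). That interval is narrow beside the difference of CRYAB, and its lower bound is a change of less than 1.5-fold.

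HSPB2 (ENSGALG00000040842) is listed on chromosome 24 from 6227007 to 6259713. Its locus of 32707 bp holds the whole 6239 bp of the CRYAB locus and overlaps 6 genes, whereas RefSeq on GRCg7b lists HSPB2 as the gene next to CRYAB with no overlap. Reads of the overlapping genes may therefore have been assigned between them, and the part of this in the level of CRYAB was not tested. The FPKM of HSPB2 are uncertain as a measure of HSPB2 alone. At 7 weeks they were 4.19, 7.54 and 6.42 for white against 5.59, 7.05 and 7.44 for yellow, with overlap. At 11 weeks they were 8.54, 6.75 and 8.03 against 3.81, 5.07 and 2.59, without overlap. At 7 weeks the difference was 0.17 (standard error 0.23, adjusted p = 0.7 in limma). It was -1.05 at 11 weeks (standard error 0.25, limma adjusted p = 0.569), so neither was called. The colour difference at 11 weeks minus that at 7 weeks was -1.22 (standard error 0.37, adjusted p = 0.731 in limma). At 7 weeks, where the ratio of CRYAB between colours was 3.66, the mean of HSPB2 was 6.05 for white against 6.69 for yellow.

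HSPB7 (ENSGALG00000023772, chromosome 21 from 4315566 to 4317250) had the widest spread of the members in 3 of the 4 groups, the exception being yellow follicles at 11 weeks. At 7 weeks its FPKM was 0.220, 2.08 and 0.564 in the white libraries against 0.961, 1.62 and 0.417 in the yellow ones. At 11 weeks it was 3.34, 0.415 and 1.82 against 0.493, 0.524 and 0.755. The colours overlapped at both ages, and libraries of 1 group differed by up to 9.45-fold. The average colour difference was -0.40 with a 95% interval of -1.61 to 0.81 (adjusted p = 0.711 in limma), which leaves changes of more than 2-fold in yellow follicles within reach. The difference at 7 weeks was 0.34, but -0.30 without 7W1, -0.06 without 7Y3 and 1.09 without 7W2. At 11 weeks it was -1.14 (standard error 0.68, adjusted p = 0.785 in limma), with means of 1.86 for white against 0.591 for yellow, and -1.91 to -0.54 with 1 library left out.

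Read against all genes, 2 of the 5 members, CRYAB and HSPB1, lay lower in yellow than in white follicles without overlap at both ages, where 1.18% of 14553 genes did. At 7 weeks alone these were the same 2 members, beside 8.04% of genes, and at 11 weeks HSPB2 joined them, beside 5.72%. Since the group was picked on the colour difference of CRYAB, nothing is read from these counts. In the 6 libraries of 7 weeks limma called 4 of 13895 genes (0.0288%) and no member. In those of 11 weeks it called 0 of 14806 (0%), although 1070 had an unadjusted p under 0.05. In the average of both ages it called 30 of 14553 genes (0.206%), of the members CRYAB alone, on the contrast that picked it. That call was lost without 1W1, at -1.86, and without 7Y1, at -1.85. No gene (0%) was called by limma for a colour difference that changed with age, with 973 at an unadjusted p under 0.05.

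**Figure D2:**
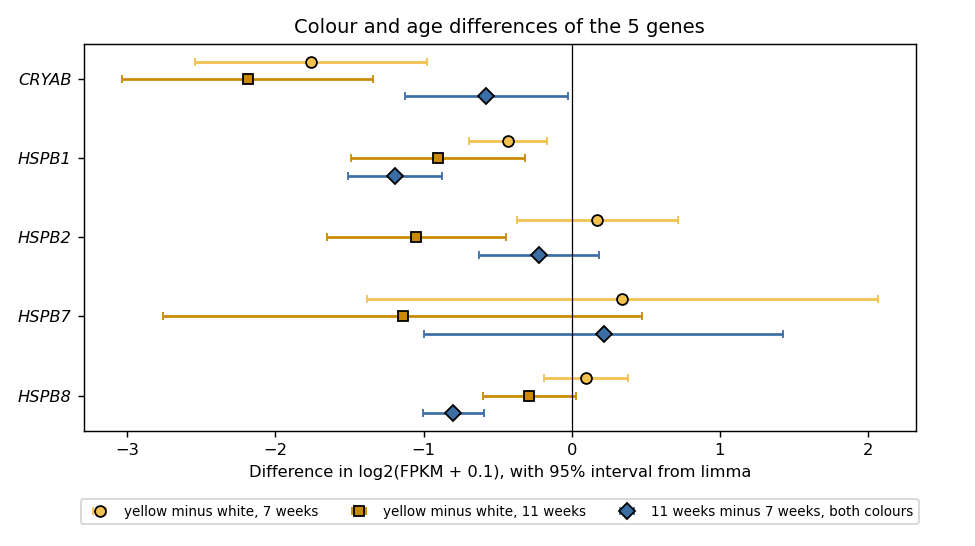
Differences in log2(FPKM + 0.1) of the 5 genes, yellow minus white at 7 weeks (circles) and at 11 weeks (squares) and 11 minus 7 weeks averaged over both colours (diamonds), with 95% intervals from limma. CRYAB lies near -2 for colour at both ages, HSPB1 and HSPB8 have their age difference below 0, and the intervals of HSPB7 all cross 0.

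Age, which was not used to choose the genes, separated HSPB1 and HSPB8. White follicles fell from 45.9 ± 1.24 (SD, n = 3) to 23.96 ± 5.25 FPKM of HSPB1, and yellow ones from 34.3 ± 5.03 to 12.9 ± 3.32. No library of 11 weeks reached one of 7 weeks in either colour. The difference, 11 minus 7 weeks and averaged over both colours, was -1.19 (standard error 0.14), a 2.29-fold decrease, and it was called (adjusted p = 2.41e-05 in limma). For HSPB8 the white means went from 189.5 ± 30.0 (SD, n = 3) to 123.9 ± 17.0 and the yellow means from 201.2 ± 10.8 to 101.5 ± 11.8, again without overlap. Its difference of -0.80 (standard error 0.09) had an adjusted p of 1.95e-05 in limma but was a change of 1.74-fold, below the 2-fold limit. For each of both genes an exact two-sided permutation test of age within colour gave p = 0.005, the smallest it allows.

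The age differences of the other members were not called by limma. CRYAB was lower at 11 weeks by -0.36 in white and -0.79 in yellow follicles, on average -0.58 (standard error 0.25, adjusted p = 0.0602 in limma, exact permutation test p = 0.05), and its ages overlapped in both colours. On average HSPB2 differed by -0.22 (adjusted p = 0.303 in limma) and HSPB7 by 0.22 (adjusted p = 0.743 in limma, 95% interval -0.99 to 1.43). These averages hide opposite signs in the colours. HSPB2 differed by 0.39 in white and -0.83 in yellow follicles, and HSPB7 by 0.96 in white and -0.525 in yellow follicles. Over all genes, limma called 28.0% of 14553 genes for age, 2.96% lower and 25.0% higher at 11 weeks, and 12% (1746) lay lower at 11 weeks without overlap in both colours. Among the 5 members, 1 was called, HSPB1, and 2 lay lower without overlap, HSPB1 and HSPB8.

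The age values depend on the scaling of the libraries, because the median gene was higher at 11 weeks by 0.44 on the log2 scale. With median-of-ratios scaling, which sets that median to 0.03, the age difference was -1.64 for HSPB1 and -1.25 for HSPB8, and HSPB8 was called as well (adjusted p = 2.14e-06 in limma). With the same scaling CRYAB was at -0.98 (adjusted p = 0.00656 in limma) and HSPB2 at -0.66 (adjusted p = 0.00966), both below the 2-fold limit, and HSPB7 turned to -0.18. The direction of the age difference averaged over both colours was the same under both scalings for HSPB1, HSPB8, CRYAB and HSPB2. For HSPB2 that average joins a higher value in white and a lower one in yellow follicles with FPKM as deposited. Over all genes that scaling called 2276 higher and 1527 lower at 11 weeks, against 3640 and 431 with FPKM as deposited.

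DES is the muscle gene against which CRYAB was set, since their proteins bind each other in muscle. At 7 weeks DES stood at 13.4, 26.5 and 14.2 FPKM in white libraries against 15.7, 26.4 and 12.02 in yellow ones. At 11 weeks it stood at 35.0, 7.72 and 29.8 against 5.07, 4.57 and 10.9. The means at 7 weeks were 18.1 ± 7.32 and 18.0 ± 7.48 (SD, n = 3), a log2 difference of -0.01 (adjusted p = 0.991 in limma), at the age where CRYAB differed by a ratio of 3.66. At 11 weeks the difference of DES was -1.65 (adjusted p = 0.643 in limma). The libraries 7W2 and 7Y3 had DES values of 26.5 and 26.4 and CRYAB values of 2.28 and 0.979. Since CRYAB was picked on its colour difference, nothing is read from this pair.

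Over the 12 libraries CRYAB and DES were correlated with a Pearson's r of 0.602 (permutation test with 100000 pairings, p = 0.041) and a Spearman's rho of 0.587 (p = 0.0489), with an adjusted p of 0.0521 for r over the 5 relations of a member with DES. White and yellow libraries form separate levels of CRYAB, so this value holds the colour difference on which the gene was picked. For the deviations from the means of the 4 groups, r was 0.289 and rho 0.210 (exact permutation test within groups for r, 1296 arrangements, p = 0.441, adjusted p = 0.551). Within the 6 libraries of 7 weeks r was 0.132, within those of 11 weeks 0.749, within white 0.407 and within yellow 0.568. None of these 4 had an exact permutation p below 0.118. Leaving out 1Y1 and 1Y3, the libraries farthest from the median of DES, gave a pooled r of 0.413 (permutation p = 0.235). With fewer libraries and a narrower range of DES, this fall does not show that the relation rested on 1Y1 and 1Y3. Leaving out any 1 library gave a pooled r of 0.499 to 0.677. The within-group r without 1Y1 and 1Y3 was 0.559, with 1Y4 then alone in its group. Ranked by r with CRYAB among the 11241 genes whose mean FPKM reached 1, DES came 245th over the 12 libraries and 1530th within groups.

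Of the 5 members HSPB7 had the highest r with DES, pooled and within groups. For HSPB7 and DES the pooled r was 0.774 (permutation test, p = 0.00358, adjusted p = 0.0179) and rho 0.783 (p = 0.00347). Within groups r was 0.875 (exact permutation test, p = 0.00154, adjusted p = 0.00772), and without 1Y1 and 1Y3 the pooled r was 0.874 and the within-group r 0.917. With 6 libraries in each, r was 0.905 at 7 weeks, 0.939 at 11 weeks, 0.886 in white and 0.790 in yellow follicles. In that order the exact permutation test gave p = 0.0125, 0.00972, 0.0375 and 0.0722, not corrected for number. The gene most like HSPB7 by r, both pooled (0.947) and within groups (0.963), was ACTA1, skeletal muscle actin, which had an FPKM of 8.31 to 31.4 over the 12 libraries. CNN1, the smooth muscle protein calponin, had a pooled r of 0.764 and a within-group r of 0.901 with HSPB7. High HSPB7 in 1W1, 7W2, 1W4 and 7Y3 thus went with high DES and ACTA1 in those libraries of both colours.

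HSPB1 followed DES within groups as well, with r = 0.774 (exact permutation test, p = 0.00926, adjusted p = 0.0231) and a pooled r of 0.713 (permutation test, p = 0.00967, adjusted p = 0.0242), rho 0.587 (p = 0.0492). Its r with DES was 0.380 at 7 weeks, 0.903 at 11 weeks, 0.189 over white libraries and 0.913 over yellow ones. Without 1Y1 and 1Y3, which leaves 1Y4 alone in its group, the pooled r was 0.383 and the within-group r 0.888. HSPB8 had a within-group r of 0.598 (exact permutation test, p = 0.0856) and a pooled r of 0.580. Without 1Y1 and 1Y3 these were 0.904 and 0.373. HSPB2 had a pooled r of 0.588 and a within-group r of 0.070 with DES (exact permutation test, p = 0.836). The latter was 0.522 without 1Y1 and 1Y3. The difference between the correlations of 2 members with DES was not tested.

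**Figure D3:**
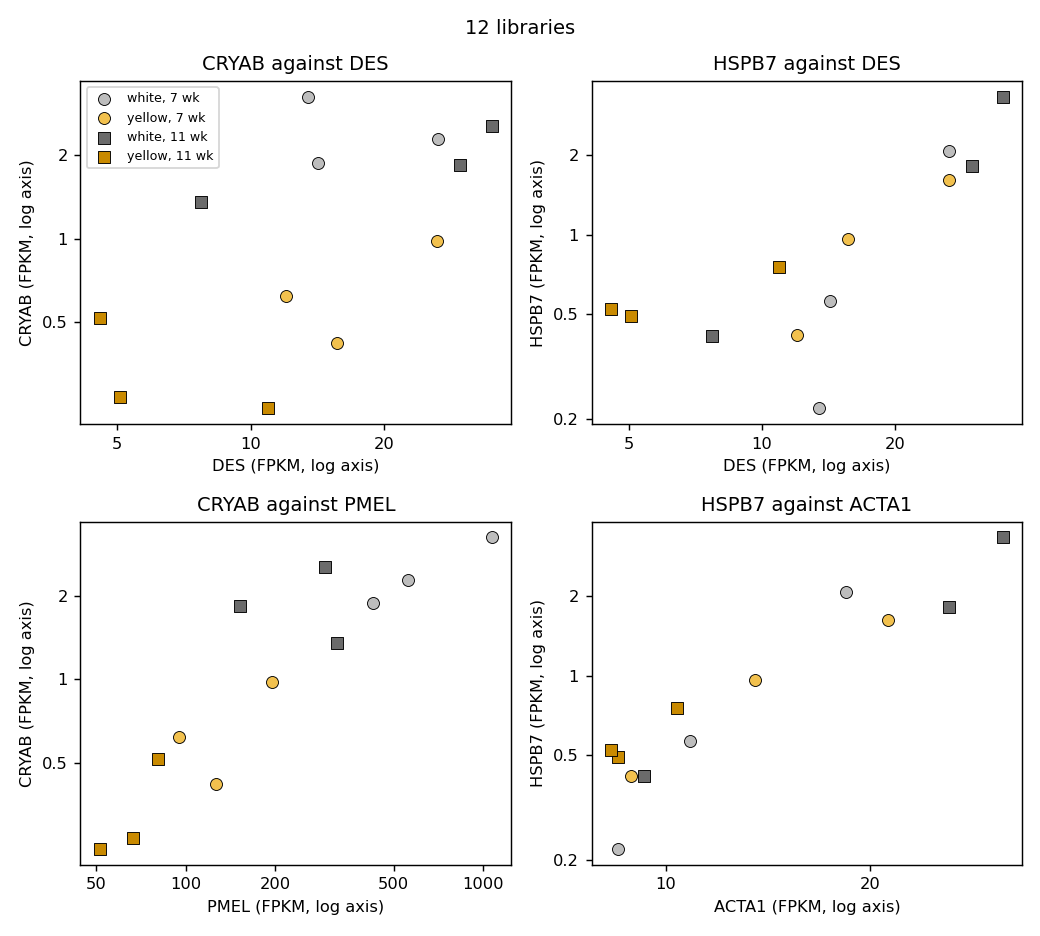
FPKM on log axes in 12 libraries, with CRYAB against DES, HSPB7 against DES, CRYAB against PMEL and HSPB7 against ACTA1; circles are 7 weeks, squares 11 weeks, grey white and yellow-brown yellow follicles. All white libraries lie above all yellow ones for CRYAB, the difference on which it was picked, so nothing is read from their separation. HSPB7 rises with DES (pooled r = 0.774) and ACTA1 (pooled r = 0.947) in both colours.

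Most striated muscle markers were low in these follicles, and smooth muscle markers were not. Of the 32 striated muscle genes in the table, 18 had a mean FPKM below 0.1, and MYL1, MYL2, LDB3 and MYOZ1, all of the sarcomere, were listed at 0 in every library. Of the 14 tested, 10 were lower in yellow follicles in the average (median log2 difference -0.26) and 0 were called by limma. The striated list summed at 7 weeks to 48.4 to 67.3 FPKM for white against 36.5 to 59.1 for yellow, and at 11 weeks to 34.1 to 82.1 against 24.01 to 38.1, with overlap at both ages. Gene by gene, 4 of 13 tested at 7 weeks lay lower in yellow follicles without overlap, beside 8.04% of all genes. At 11 weeks 0 of 12 did, beside 5.72%. Of 17 smooth muscle genes tested, 13 were lower in yellow follicles in the average and 16 at 11 weeks, with 0 called for colour by limma. They summed at 7 weeks to 661 to 798 FPKM for white against 656 to 767 for yellow, and at 11 weeks to 568 to 868 against 523 to 606, with overlap at both ages. PDLIM7, a cytoskeletal adaptor, was the 1 gene of these lists lower in yellow follicles without overlap at both ages, with means of 102.8 and 76.2 at 7 weeks and 68.9 and 56.3 at 11 weeks (average -0.38, adjusted p = 0.175 in limma). The part of muscle cells in the lower HSPB2 of yellow follicles at 11 weeks was not tested. With age, limma called TAGLN (-1.18) and CSRP1 (-1.09) lower and CALD1 (2.11), SYNPO2 (1.80), MYH11 (1.32) and MYOCD (1.25) higher, all on the log2 scale. TAGLN and CSRP1 bind the cytoskeleton of smooth muscle, and the within-group r of HSPB1 was 0.729 with TAGLN and 0.808 with CSRP1, given as a description.

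The genes most like CRYAB over the 12 libraries were mostly ones that also differed between the colours. CRYAB was picked on its colour difference, so a ranking over both colours favours such genes, and nothing is read from that. COQ6, an enzyme of ubiquinone synthesis, came first with r = 0.943, followed by PMEL (0.908), TYRP1 (0.906), MLANA (0.905) and FBXO28 (0.899), a subunit of ubiquitin ligases. The next were ENSGALG00000046971, DPF1, a chromatin remodelling subunit of neurons, ENSGALG00000048627, the retinoid receptor gene RXRG (0.866) and GPR143 (0.864), a receptor of the melanosome. COQ6 had means of 11.4 and 8.50 in white and yellow follicles at 7 weeks and 10.3 and 7.49 at 11 weeks, a smaller difference than that of CRYAB. PMEL spanned 152.0 to 1066 FPKM over the white libraries and 51.5 to 195.2 over the yellow ones. Within groups, r with CRYAB was 0.554 for PMEL, 0.400 for TYRP1, 0.615 for MLANA, 0.807 for FBXO28 and 0.703 for GPR143, so FBXO28 kept the largest value of these 5.

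By deviations within groups, 8 of the 10 most similar genes overlapped between the colours at both ages. Over all genes tested, 8.04% lay lower in yellow follicles without overlap at 7 weeks and 5.72% at 11 weeks. The share that lay higher without overlap was not computed, so these shares match only part of the count of 8, and nothing is read from it. S100A9, a calcium-binding protein, had a within-group r of 0.937 and a pooled r of 0.115 with CRYAB. ENSGALG00000027716 (0.937), ENSGALG00000043529, TRAPPC5 (0.888), a subunit of a vesicle tethering complex, and ENSGALG00000042023 came next, followed by FAM173A (0.880), ENSGALG00000036831, PTHLH (0.864), a parathyroid hormone-like signal, the growth factor gene NRG4 (0.862) and ENSGALG00000053425. The exceptions were ENSGALG00000053425, lower in yellow follicles without overlap at both ages, and PTHLH, lower at 11 weeks. The 10 genes of this list and the 10 of the pooled list had none in common. With 12 libraries and 11241 genes ranked, high values arise in number, and they are given without a test.

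The members were not alike among themselves. CRYAB and HSPB1, the pair lower in yellow follicles at both ages, had a pooled r of 0.643 and a within-group r of 0.035. HSPB1 and HSPB8, the pair lower at 11 weeks, had a pooled r of 0.876 and a within-group r of 0.443. The largest within-group value was that of HSPB7 and HSPB8, at 0.804, beside a pooled r of 0.241. CRYAB and HSPB2, whose loci overlap, had a within-group r of 0.332.

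Around CRYAB 1 other gene, ENSGALG00000030720, was called for colour, where limma called 0.206% of all genes tested. Within 100 kb of CRYAB, 17 other genes are listed and 13 passed the filter. Of these, 0 lay lower and 0 higher in yellow follicles without overlap at both ages. Over all genes tested 1.18% lay lower in this way, so nothing is read from the absence of such neighbours. Among the genes inside the span of HSPB2, FDXACB1 had an average difference of -0.07, C11orf52 of 0.11 and DIXDC1, at its edge, of 0.18, whereas C11orf1 was below the minimum with a mean FPKM of 0.0501. ENSGALG00000021174 was at -0.28, and its yellow libraries lay below the white ones at 7 weeks alone. Farther out, the mitochondrial enzyme gene DLAT was at 0.24, PIH1D2 at 0.14, ENSGALG00000007882 at 0.17, ENSGALG00000007878 at 0.02, the cytokine gene IL-18 at -0.23, ENSGALG00000028815 at -0.40 and ENSGALG00000043026 at -0.13. BCO2, TEX12 and ENSGALG00000039246 were below the minimum over 12 libraries. ENSGALG00000039246 passed it at 7 weeks, at -1.04 (adjusted p = 0.331 in limma), and at 11 weeks it was listed at 0 in the yellow libraries and had 0.117, 0.0712 and 0.194 FPKM in the white ones. Counted by age, 1 neighbour lay lower in yellow follicles without overlap at 7 weeks and 2 at 11 weeks, HSPB2 and ENSGALG00000039246. Higher without overlap were 3 at 7 weeks and 0 at 11 weeks. Over all genes tested 8.04% lay lower at 7 weeks and 5.72% at 11 weeks. The share lying higher was not computed, and nothing is read from these counts. The 1 neighbour called was ENSGALG00000030720, 61.6 kb from CRYAB, higher in yellow follicles by 3.18 in the average (adjusted p = 0.0235 in limma), the opposite direction. At 7 weeks it was called as well, at 4.12 (adjusted p = 0.0101 in limma), with 0 to 0.076 FPKM for white against 1.88 to 2.63 for yellow. At 11 weeks it was at 2.25 (adjusted p = 0.659 in limma), where the white library 1W4, at 1.16 FPKM, overlapped the yellow ones. In the average the other tested neighbours differed by at most 0.44 in size, the value of HSPB2. With age, DLAT (1.70) and IL-18 (1.37) were called higher at 11 weeks.

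**Figure D4:**
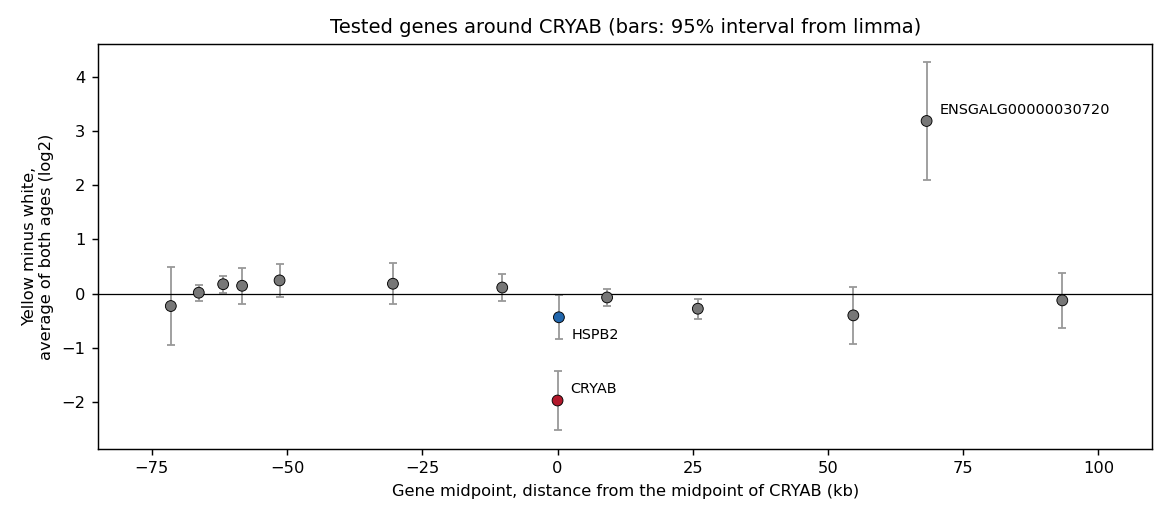
Average yellow minus white difference (log2) of the genes tested around CRYAB, by the distance of the gene midpoint from that of CRYAB in kb; bars are 95% intervals from limma. CRYAB lies at -1.97, ENSGALG00000030720 at 3.18, and the other tested genes within 0.44 of 0.

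The genes beside the other members were looked at in the same way. Next to HSPB1, YWHAG had a colour difference of 0.32 at 7 weeks and of -0.23 at 11 weeks, where its colours did not overlap (adjusted p = 0.704 in limma), and rose with age by 0.75 (adjusted p = 2.67e-05 in limma), opposite to HSPB1. The locus ENSGALG00000051520, which overlaps HSPB1 from 4404125 to 4405211, had a mean FPKM of 0.0360, and how reads of the shared stretch were assigned was not tested. Next to HSPB7, ZBTB17 was at -0.05 and ENSGALG00000003713 at 0.42 for colour. Next to HSPB8, CCDC60 was below the minimum and ENSGALG00000048256 was at -0.18 for colour and 0.62 for age, where HSPB8 fell.

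No chaperone on the lists that work with small heat shock proteins was called for colour by limma. Of 13 genes of the HSP70 and HSP90 systems tested, 7 were lower and 6 higher in yellow follicles in the average, with a median log2 difference of -0.004 and 0 called by limma for colour. HSPA13, an HSP70 relative of the endoplasmic reticulum, was the 1 with separate colours at both ages, higher in yellow follicles, with means of 1.42 and 2.04 at 7 weeks and 2.86 and 3.43 at 11 weeks (average 0.37, adjusted p = 0.147 in limma). With age 11 of the 13 had a value above 0, as had 10188 of 14553 genes tested, and none was called. Of 24 cochaperones and heat shock factors tested, 8 were lower and 16 higher in yellow follicles, with a median of 0.06 and 0 called by limma. With age, DNAJB2, a cochaperone of HSP70, was called lower (-1.15), and DNAJB4 (3.20) and BAG5 (1.29), also HSP70 partners, were called higher. Lower at 11 weeks without overlap in both colours, as HSPB8 was, were 6 of the 24, DNAJB2, CDC37 (-0.88), STIP1 (-0.79), STUB1 (-0.59), AHSA1 (-0.46) and BAG4 (-0.19). STUB1, a ubiquitin ligase that works with HSP70, came 5th of 11241 genes by pooled r with HSPB8 (0.963), given as a description. The last 5 of those 6 cochaperones, BAG3 and HSF1 were chosen for naming after their values were seen. BAG3, the partner of HSPB8, had an age difference of 0.20 (adjusted p = 0.106 in limma), beside -0.80 for HSPB8, and HSF1, the factor that drives heat shock genes, had a colour difference of 0.10 and an FPKM of 5.81 to 12.8 over the 12 libraries.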

How the data were processed

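Reads were filtered by the authors, aligned to GRCg6a with TopHat2 (Bowtie2 2.2.3 index) and counted per Ensembl gene with HTSeq 0.6.0, and the values the authors deposited are FPKM for 24353 genes in 12 libraries, which the methods derive from gene length and read counts. However, 562 values above 0 are smaller than 1e-06, which whole reads would not be expected to give, so the step that wrote them is unclear. Without counts the DEGseq test of the study was not repeated. Whether counting used strand is not given in the sources used here. Values were taken as log2(FPKM + 0.1) for genes with a mean of 0.1 or higher and fitted with limma 3.58.1 (eBayes with trend, R 4.3.3, Benjamini-Hochberg), on 6 libraries for each age and on 12, with a mean per group, for averages and the change with age. Calls needed an adjusted p up to 0.05 and 1 log2 unit of difference, the limits of the study. Single members were tested by exact permutation of colour within age or of age within colour, and correlations by permutation, in Python 3.11.15. The fits were checked on simulated data.

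Named were all members, DES, up to 6 genes a list that were called or had separate colours at both ages, genes within 100 kb of CRYAB, genes flanking the other members, and the 10 genes most like CRYAB by each measure. Mesenchymal and blood markers were also listed, with 0 called for colour by limma. The members and lists were chosen with earlier results of these data known. Tried as alternatives were a pseudocount of 1 or 0.01, a minimum of 1 or none, median-of-ratios scaling, equal totals leaving out genes at 500 FPKM or above, eBayes without its trend, a replicate block, a random bird block, leaving out each library and, for the correlation, FPKM without logarithm, ranks, and single ages or colours. Sequences were not used here.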

Additional observations from a re-analysis of the deposited data

Results flagged for a closer look

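For HSPB2 the colour difference was 0.17 at 7 weeks and -1.05 at 11 weeks, and it was looked at again because the test of the change itself, -1.222 on the log2 scale, had an unadjusted p in limma under 0.05. It was not called, with an adjusted p of 0.731 in limma (Benjamini-Hochberg over 14553 genes). Leaving out each library in turn gave -1.45 to -0.97. The locus of HSPB2 as listed spans the whole of CRYAB, C11orf52, C11orf1 and FDXACB1. It also covers parts of DIXDC1 and ENSGALG00000021174, and the part of shared reads in this value was not tested.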

How the results depend on the processing

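The numbers of genes called moved with several settings. At 7 weeks 2 genes were called with a pseudocount of 0.01, 2 with a minimum mean FPKM of 1, 7 with median-of-ratios scaling, 18 with the replicate block and 3 to 13 without 1 library, against 4. At 11 weeks 2 were called with eBayes without trend and 0 to 2 without 1 library, against 0. In the average, 13 were called with a pseudocount of 1, 16 with a minimum of 1, 1 with the replicate block, 19 with the random bird block, 2 without 7Y1 and 88 without 7Y3, against 30. For age, 2219 were called with a pseudocount of 1 and 3768 to 4345 without 1 library, against 4071, and for the change with age 0 to 2 without 1 library, against 0. The call of CRYAB in the average was also lost with the replicate block, at -1.96. That block joins libraries by number across the colours, which are of different birds. With the random bird block, which joins libraries of the same colour and number, the call was kept, at -1.97. The HSPB8 colour difference at 7 weeks turned to -0.0107 and the HSPB7 age difference to -0.18 with median-of-ratios scaling. Without 1 library, HSPB2 at 7 weeks ranged from -0.0663 to 0.35, HSPB7 at 7 weeks from -0.30 to 1.09 and HSPB7 with age from -0.10 to 0.60. For CRYAB and DES the pooled r was 0.535 on FPKM without logarithm, 0.413 without the 2 libraries farthest from the median, 0.132 at 7 weeks, 0.749 at 11 weeks, 0.407 in white, 0.568 in yellow and 0.499 to 0.677 without 1 library, and the within-group r ranged from -0.0251 to 0.499 without 1 library. The causes were not tested. Same-numbered libraries deviated together with correlations of 0.0964 to 0.267 between ages and -0.0363 to 0.235 between colours over 11242 genes. Libraries of different numbers had -0.341 to 0.154 between ages and -0.28 to 0.185 between colours. This does not establish that the numbers pair birds, so the block stands here alone. The permutation tests, and the limma fits on 12 libraries without a block, took the libraries as separate birds. Their p-values would not hold as given if birds were shared between ages. Depth limits CRYAB and HSPB7 most, at about 1 FPKM, where reads per gene were not recovered.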
